A study of Drosophila melanogaster with 30 samples.

Results

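Heat shock proteins are chaperones that keep other proteins from aggregating or help them fold. Their genes are switched on by the transcription factor Hsf when proteins unfold, and several of the small ones are also induced by the moulting hormone ecdysone in larval and pupal tissues. The 9 genes described here are Hsp22, Hsp23, Hsp26, Hsp27, Hsp67Bc, Hsp68, Hsp83, l(2)efl and CG4456, out of 10213 annotated genes with an interval in at least 1 of the RNA tables. They were chosen with earlier results of these data known, so the shares called among them are no test of the set. Each was given the interval that covered its RefSeq gene reciprocally by more than 0.9. A set of 6 genes lies side by side at 67B on chromosome arm 3L, and the other 3 lie alone on 3R (Hsp68), 3L (Hsp83) and 2R (l(2)efl). None is X-linked.

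RNA was sequenced from wing imaginal discs, the epithelia that form the adult wing, of wandering third-instar Drosophila melanogaster larvae. The groups were H4K16R males, HWT males, H4K16R females and HWT females, with 3 libraries each and 30 pooled discs per library. All of these larvae lacked their own replication-dependent histone genes (ΔHisC on both homologues, carrying twi-GAL4 and UAS-2xEYFP as the marker of the deletion) and lived on a transgene of 12 histone repeats, which encoded unchanged histones in HWT and H4 with arginine in place of lysine 16 in H4K16R. Replication timing came from the same genotypes, from H3K9R females, in which lysine 9 of H3 is arginine, and from yw females with their own histone genes. Eggs for the RNA samples were laid at 25 °C per the labels' protocols, which give no temperature for their later larval culture.

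Each interval of the RNA tables comes with 1 log2 fold change and 1 adjusted p, and with no level or value per library. Depth and the spread between single libraries are therefore unknown. Errors quoted below are standard errors recovered from the authors' fold change and adjusted p, and "called" means an adjusted p under 0.05. The labels do not say that libraries came from separate crosses, so these p-values measure the spread between the libraries, which may be technical. No source used here says which genotype is on top of the fold change. It was taken to be H4K16R because the X of males then comes out lower, and were it HWT, every sign below would turn round. The direction on the male X is therefore part of this assumption and not a result. Read this way, X-linked intervals had a median of -0.43 on the log2 scale in males and -0.0010 in females in the authors' deposited tables. Acetylation of H4 lysine 16 is known for its role in raising transcription of the male X.

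The 9 genes could not all be measured on their own. Hsp22 (3L:9372931-9374964, dm6) lies wholly inside CG4456 (3L:9372722-9374964), and they share 2034 bases, so both fall on a single interval with overlaps of 0.907 and 1. CG4456, whose older name in RefSeq is Hsp67Bb, encodes a rhodanese-like protein and not an alpha-crystallin chaperone, whereas Hsp22 is the small heat shock protein of the mitochondrial matrix. Reads of the pair cannot be told apart, and it is written as Hsp22/CG4456. Hsp27 (3L:9384063-9385694), a nuclear small heat shock protein, was covered only by intervals that ran on into CG4080, with overlaps of 0.173 at best in males and 0.204 in females, and so had no interval by the rule. l(2)efl (2R:23684651-23685543), a small heat shock gene related to alpha-crystallin, had an interval of its own in males only, and in females only the enclosing St3 interval was tested. This left 7 intervals for 8 genes in males and 6 intervals for 7 genes in females.

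In H4K16R males the heat shock genes moved in both directions. Of 7 intervals, 2 were higher in H4K16R (Hsp22/CG4456 and Hsp26) and 2 were lower (Hsp23 and l(2)efl). On chromosomes 2 and 3, where all of them lie, the authors' deposited table of males had 9.48% of intervals called, 6.09% higher and 3.39% lower. An unadjusted p under 0.05 was recovered for 6 of the 7, the exception being Hsp67Bc. Over chromosomes 2 and 3 it was recovered for 1961 of 9472 intervals. The median of the 7 was 0.43, against 0.08 over intervals on chromosomes 2 and 3. Subtracting that 0.08 changed no direction among the 7.

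All 4 calls were at intervals of small heat shock genes. Hsp22/CG4456 had the largest rise, at a log2 fold change of 1.66 in the authors' deposited table of males, with a recovered error of 0.49 (SE, as for every ± below). That is 3.15 times the HWT level (95% interval 1.61 to 6.16, adjusted p = 0.0086), and 95.8% of intervals on chromosomes 2 and 3 had a lower value. In the authors' deposited table Hsp26 (3L:9376418-9377427), a cytosolic small heat shock protein, rose by 0.69 ± 0.25, or 1.61-fold (95% interval 1.14 to 2.27, adjusted p = 0.045). This call sits close to the threshold. The authors' deposited table had a fall for Hsp23 (3L:9381882-9382765), another cytosolic small heat shock protein, of -0.42 ± 0.10, to 0.747 of the HWT level (95% interval 0.651 to 0.858, adjusted p = 8.2e-04). Hsp23 had the smallest error of the 7, smaller than that of all but 21.0% of intervals on chromosomes 2 and 3. A longer interval of 12728 bases held 869 of the 884 bases of Hsp23 and ran on over Hsp27 into CG4080. It had -0.01 ± 0.07 in the authors' deposited values of males (adjusted p = 0.94), and so did not show the fall, but it is no measure of Hsp23 alone. Hsp67Bc (3L:9371511-9372497), which promotes autophagy of misfolded protein together with the co-chaperone Starvin, had 0.43 ± 0.52 in the authors' deposited table (adjusted p = 0.64), and its interval of 0.663 to 2.75 times the HWT level holds both a fall and a rise.

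l(2)efl had the lowest value of the set, and the least certain one. In the authors' deposited table its log2 fold change in males was -4.15 ± 1.46 (adjusted p = 0.034), a 95% interval of 0.00769 to 0.410 times the HWT level. Its error was larger than that of 97.5% of intervals on chromosomes 2 and 3. The gene lies inside St3, whose interval of 4604 bases had -1.53 ± 0.86 (adjusted p = 0.24) in males and -0.58 ± 0.62 (adjusted p = 0.79) in females in the authors' deposited tables. Of 10 fat body markers, 6 were lower in H4K16R males too, as described further on, and their part in the l(2)efl value was not tested.

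The larger chaperones did not pass. Hsp68 (3R:24055080-24057310), a stress-inducible member of the Hsp70 family, had 1.56 ± 0.67 in the authors' deposited table of males (adjusted p = 0.096), an interval of 1.19 to 7.27 times the HWT level. Hsp83 (3L:3192969-3197059), the cytosolic Hsp90 of the fly and abundant without stress, had 0.26 ± 0.12 in the authors' deposited table of males (adjusted p = 0.14), an interval of 1.02 to 1.41 times the HWT level. Both 95% intervals are unadjusted and exclude 1, while the adjusted p do not pass.

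**Figure D1:**
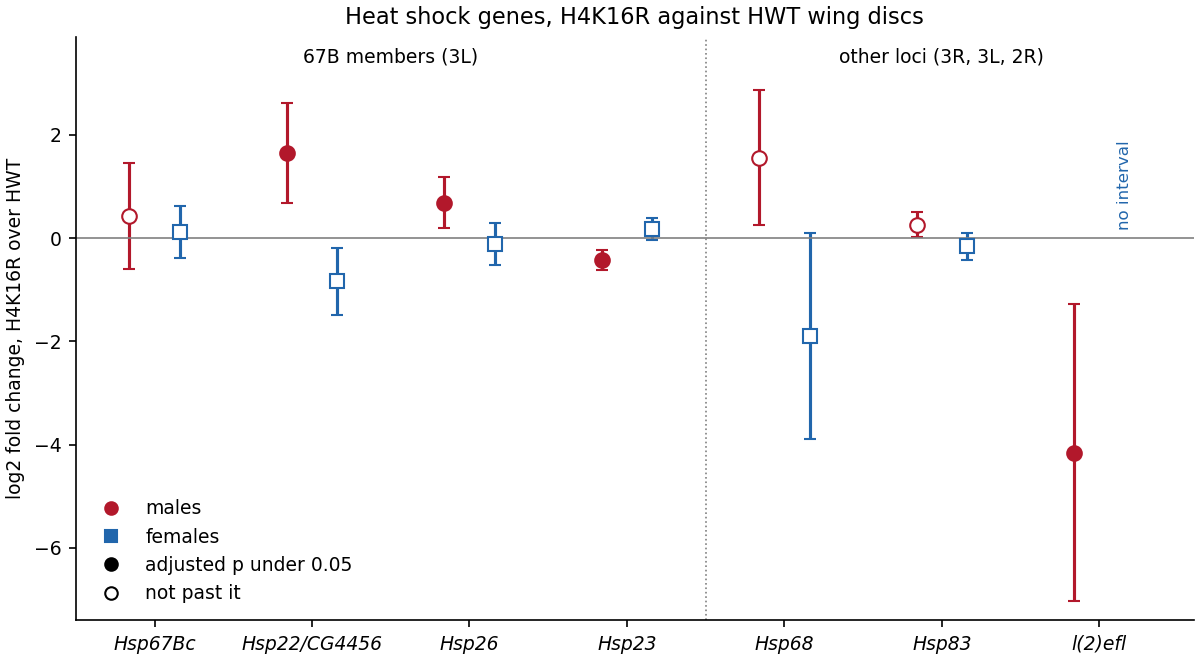
Log2 fold change of H4K16R over HWT (y axis) for each heat shock interval, males as circles and females as squares, with recovered 95% intervals as bars and filled symbols for an adjusted p under 0.05. Males range from -4.15 (l(2)efl) to 1.66 (Hsp22/CG4456), and the female symbols are all open.

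In H4K16R females 0 of 6 heat shock intervals were called, where 0.955% of intervals on chromosomes 2 and 3 were called in either direction in the authors' edgeR table. Over chromosomes 2 and 3 an unadjusted p under 0.05 was recovered for 1019 of 8800 intervals, and of the 6 for 1, Hsp22/CG4456. Its log2 fold change was -0.83 ± 0.33 in the authors' deposited table of females (adjusted p = 0.24), or 0.561 of the HWT level with an interval of 0.358 to 0.877. Of the 6, Hsp68 had the lowest value in the authors' deposited table, -1.90 ± 1.02 (adjusted p = 0.46), and its interval of 0.0673 to 1.07 times the HWT level is the widest of the 6. From the authors' deposited table of females, Hsp26 had -0.12 ± 0.21, Hsp83 -0.16 ± 0.13, Hsp67Bc 0.12 ± 0.25 and Hsp23 0.18 ± 0.11. The precise genes among these, Hsp23 and Hsp83, had 95% intervals of 0.968 to 1.32 and 0.749 to 1.07 times the HWT level. The median of the 6 was -0.14, against -0.0039 over intervals on chromosomes 2 and 3.

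The effect of H4K16R differed between the sexes for 2 of the 6 intervals measured in both. The log2 fold change of females was subtracted from that of males and the difference put to a z test, adjusted by Benjamini-Hochberg over 8856 pairs of intervals. On chromosomes 2 and 3, 2.5% of pairs were called higher in males by this test and 1.58% lower. For Hsp22/CG4456 the male effect exceeded the female one by 2.49 ± 0.59 (95% interval 1.33 to 3.65, adjusted p = 0.0018). For Hsp23 the male effect was below the female one, a difference of -0.60 ± 0.15 (95% interval -0.89 to -0.30, adjusted p = 0.0039). Hsp68 had the widest gap, 3.46 ± 1.22, and lay just outside the threshold (95% interval 1.07 to 5.84, adjusted p = 0.054). With the fold changes of each sex centred on chromosomes 2 and 3 its adjusted p was 0.049.

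Hsp26, Hsp83 and Hsp67Bc did not pass this test. Their differences were 0.80 ± 0.33 (adjusted p = 0.12), 0.42 ± 0.18 (adjusted p = 0.14) and 0.32 ± 0.58 (adjusted p = 0.82). The interval of the difference was 0.15 to 1.45 for Hsp26, 0.06 to 0.77 for Hsp83 and -0.82 to 1.46 for Hsp67Bc, so none of them shows that the sexes responded alike. The fold changes of 5 of the 6 intervals had opposite signs in the sexes, 4 of them above 0 in males and below 0 in females, while Hsp23 was the other way round. Among all pairs on chromosomes 2 and 3, 48.8% had opposite signs. The male and female tables share no libraries.

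**Figure D2:**
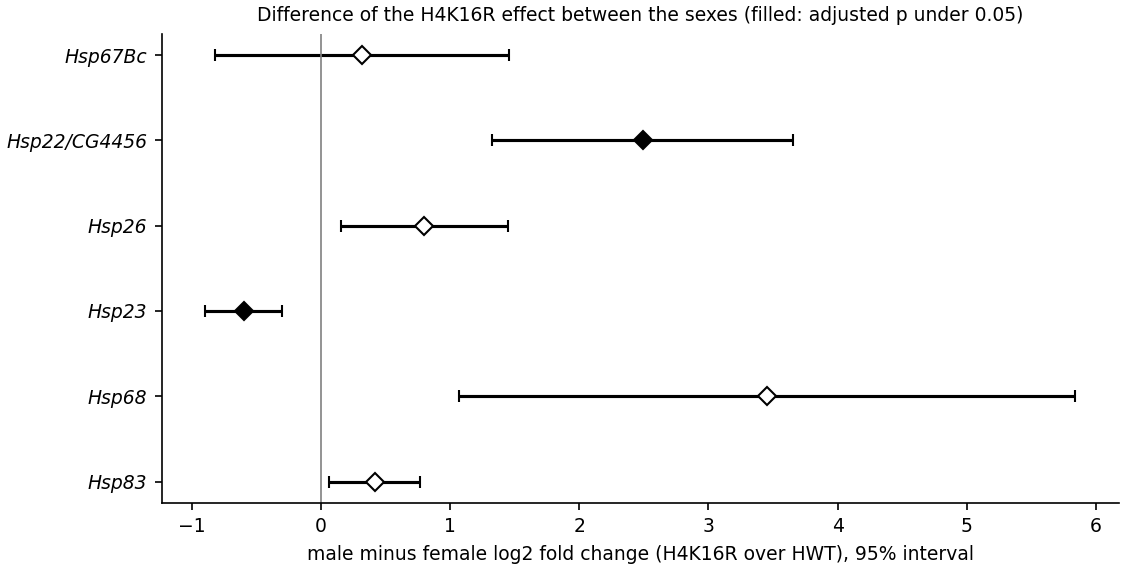
Male minus female difference of the log2 fold change of H4K16R over HWT (x axis) for the 6 intervals measured in both sexes, with 95% intervals as bars and filled symbols for an adjusted p under 0.05. Hsp22/CG4456 (2.49) and Hsp23 (-0.60) lie on opposite sides of 0.

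Within the 67B cluster the response of males changed direction over a few kilobases. The 6 genes span 14.2 kb, and 10 intervals of the male table touch this span, of which 3 were called higher and 3 lower in H4K16R, where 5.07% of all intervals on 3L were called higher and 3.51% lower. These 6 are not separate measurements, since 2 of the higher ones share bases and so do 2 of the lower ones. From left to right on 3L, the Hsp67Bc interval was not called, Hsp22/CG4456 and Hsp26 were higher, and the next genes were lower. The interval over CG4461, a further small heat shock gene, and Hsp26 together had 0.70 ± 0.26 in the authors' deposited table of males (adjusted p = 0.046), close to the 0.69 of Hsp26 alone, with which it shares bases.

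Between Hsp26 and Hsp23 lie Hsp67Ba, another small heat shock gene, and asRNA:CR43481, an antisense RNA by its name. The interval over Hsp67Ba, whose overlap of 0.811 left it outside the rule, had -0.71 ± 0.13 in the authors' deposited table of males (adjusted p = 1.3e-05), which gives asRNA:CR43481 -0.65 ± 0.13 (adjusted p = 2.9e-05). They share bases, and since the labels do not say that counting used the strand, the pair cannot be told apart. Hsp23, further right, was lower as given above. Intervals that run from Hsp27 over CR43483 and CR43482 into CG4080 had 0.12 ± 0.08 (adjusted p = 0.35) in males and 0.39 ± 0.12 (adjusted p = 0.087) in females in the authors' deposited tables, and they say nothing of Hsp27 alone.

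The same cluster had 0 of 8 intervals called in the authors' edgeR table of females. Over all of 3L an unadjusted p under 0.05 was recovered for 287 of 2160 intervals, and in the cluster for 4. Those 4 were Hsp22/CG4456 below 0 and Hsp67Ba, asRNA:CR43481 and Hsp27 to CG4080 above it. In the authors' deposited table Hsp67Ba had 0.25 ± 0.10 and asRNA:CR43481 0.26 ± 0.10 (adjusted p = 0.26 for each). Hsp23 was listed with a pair of nested intervals of identical value, 0.18, in females, so they count as 1 measurement.

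The genes that flank the cluster had 0 calls in either sex in the authors' edgeR tables, with 1 interval in males (CG4452, at 0.33 ± 0.14) and 0 in females at an unadjusted p under 0.05. Over all of 3L that p was recovered for 459 of 2368 intervals in males and 287 of 2160 in females. Within 25 kb on each side, 16 intervals in males and 15 in females covered PGRP-LC, PGRP-LF, UGP, CG32040, Svip, Pdxk, CG34456, Klp67A, mRRF1, CG4452, Fdx1, CG4080, eIF4E1, Cpr67B and CG4022. Their medians were 0.06 in males and -0.06 in females. The nearest gene on the left, Fdx1, had 0.55 ± 0.36 in the authors' deposited table of males (adjusted p = 0.34), and the translation factor gene eIF4E1 on the right had 0.10 ± 0.08 (adjusted p = 0.43). The cuticle gene Cpr67B had the largest flanking value in males, 4.36 in the authors' deposited table, with a recovered error of 2.85 (adjusted p = 0.33).

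**Figure D3:**
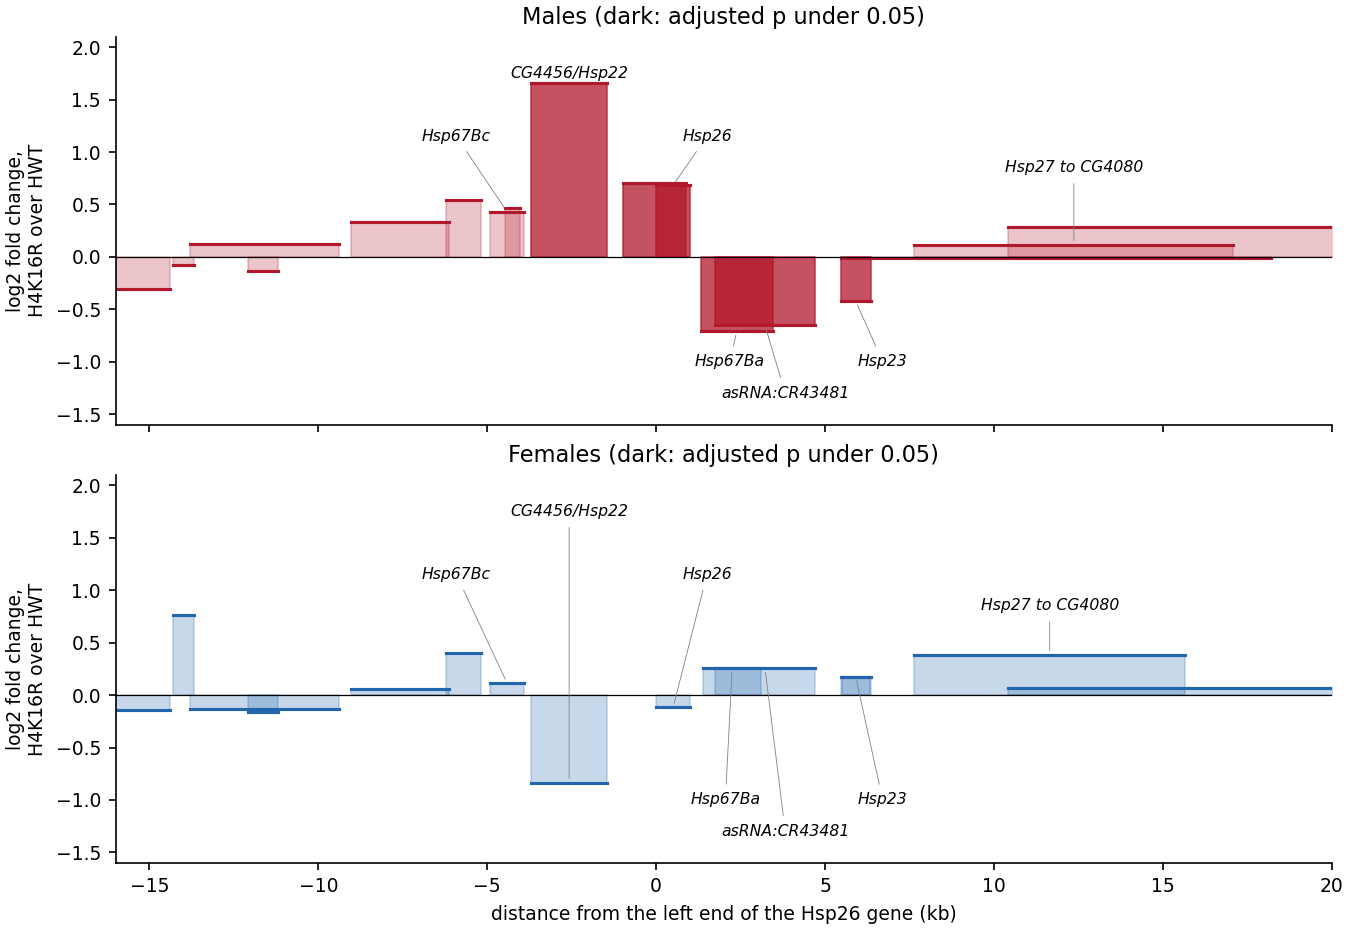
Tested intervals in and around the 67B cluster, placed by distance from the left end of Hsp26 (x axis, kb). The y axis gives their log2 fold change of H4K16R over HWT, males above females, dark where the adjusted p was under 0.05. Farther flanking intervals, Cpr67B among them, lie outside the axes. In males Hsp22/CG4456 at 1.66 and Hsp26 at 0.69 stand above 0 and Hsp67Ba at -0.71 and Hsp23 at -0.42 below it.

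The 67B genes and the members at other loci each held calls in males and none in females. In males the 4 intervals of the cluster had a median log2 fold change of 0.56 with 2 called higher and 1 lower, and the 3 at other loci had 0.26 with 0 called higher and 1 lower. In females the medians were 0.00026 over 4 intervals and -1.03 over 2, with 0 called in both sets. A further reading took the small heat shock genes of all lists and left out Hsp68 and Hsp83. It added CG7409 and X-linked CG14207, from outside the 9 genes, to the other loci, and in females Hsp67Ba to the cluster. The 67B minus other difference of medians was then 1.32 in males, against 0.30 with all members. In females it was -0.30, against 1.03 with all members. The genes of the cluster share a locus and are not independent of one another, and no test was run over the sets. Near-identical copies, which make the counts of the inducible Hsp70 genes uncertain, are not known for these 9 genes, and sequence identity was not computed here.

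The other chaperones of the pathway were read in the same way. The lists below were chosen with earlier results of these data known. Of the 44 intervals of the other chaperone lists in males, 7 were higher and 7 lower, where 5.35% of all intervals were called higher and 10.3% lower. On the X, 0 were higher and 6 lower of 7 with a median of -0.47, where 1.16% of all X intervals were called higher and 44.6% lower. On chromosomes 2 and 3, 7 were higher and 1 lower of 37 with a median of 0.20, beside the 6.09% and 3.39% of all intervals there. In females 0 of 45 were called in the authors' edgeR table, where 0.974% of all intervals were called, and 5 of the 45 had an unadjusted p under 0.05. That p was recovered for 1252 of all 10775 intervals in females and 3093 of all 11505 in males. In males 21 of the 44 had it, all 7 on the X and 14 of the 37 on chromosomes 2 and 3. Among all male intervals, 1092 of 1901 on the X had it and 1961 of 9472 on chromosomes 2 and 3. Over all shared pairs of intervals, X-linked ones included, 7.89% differed between the sexes. On chromosomes 2 and 3 alone, 2.5% were called higher in males and 1.58% lower. No share was computed for the X alone, so the X-linked sex differences given next have no background of their own.

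The gene of the regulator itself, Hsf, rose in H4K16R males. Hsf had 0.37 ± 0.11 (adjusted p = 0.0050) in males and 0.03 ± 0.09 (adjusted p = 0.95) in females in the authors' deposited tables. The noncoding heat shock transcript lncRNA:Hsromega had -0.15 ± 0.14 (adjusted p = 0.55) in males and -0.35 ± 0.10 (adjusted p = 0.056) in females in the same tables. The sex difference of neither passed.

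The inducible Hsp70 genes are present in near-identical copies, and the values of each copy are uncertain because reads can be assigned to another. Of 5 copies with an interval in the authors' deposited table of males, Hsp70Ba was higher, at 1.67 ± 0.58 (adjusted p = 0.031). Hsp70Bb had 2.06 ± 0.80, Hsp70Bbb 1.94 ± 1.04, Hsp70Bc 2.85 ± 1.16 and Hsp70Ab -0.13 ± 0.56 in that table, none called. All 4 copies listed in females in the authors' deposited table had values below 0, from -5.72 ± 2.12 (Hsp70Bc, adjusted p = 0.20) to -0.42 ± 1.12 (Hsp70Ba, adjusted p = 0.94). The male minus female difference passed for Hsp70Bc (8.57 ± 2.42, adjusted p = 0.011) and Hsp70Bb (2.84 ± 0.98, adjusted p = 0.0498).

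Among the constitutive Hsp70 relatives, 2 of 5 intervals were higher and 0 lower in males. In the authors' deposited table Hsc70-4, the main cytosolic form, rose by 0.41 ± 0.10 (adjusted p = 6.8e-04) and Hsc70-5, the mitochondrial form, by 0.33 ± 0.10 (adjusted p = 0.0073). Both differed between the sexes, by 0.49 ± 0.14 (adjusted p = 0.0095) and 0.42 ± 0.13 (adjusted p = 0.026). In females 0 of 4 were called and 1 had an unadjusted p under 0.05, with Hsc70-4 at -0.08 ± 0.10 and Hsc70-5 at -0.09 ± 0.09 in the authors' deposited table.

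Of 13 intervals of Hsp70 co-chaperones in males, 1 was higher and 3 lower. The authors' deposited table gives 0.35 ± 0.13 for DnaJ-H, a J-domain partner (adjusted p = 0.034), and -0.33 ± 0.11 for mrj, another (adjusted p = 0.029). X-linked HIP and HIP-R, which share an older name in RefSeq and may share reads, had -0.84 ± 0.18 and -0.74 ± 0.16 in that table (adjusted p = 1.6e-04 and 2.6e-04). DnaJ-1, the J-domain protein of the heat shock response, had 0.53 in males and -0.39 in females without a call in the authors' deposited tables, and its difference of 0.91 ± 0.26 passed (adjusted p = 0.011). The difference also passed for stv, which encodes Starvin (0.65 ± 0.20, adjusted p = 0.026). It passed in the other direction for HIP (-0.85 ± 0.22, adjusted p = 0.0043) and HIP-R (-0.82 ± 0.20, adjusted p = 0.0019), so 2 co-chaperones were higher and 2 lower in males by this test.

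Partners of Hsp83 had no calls. Of 10 intervals for Hsp90 relatives and co-chaperones, 0 were called in the authors' edgeR table of males, where values ran from -0.13 to 0.44, and 0 had an unadjusted p under 0.05. In females 0 of 11 were called, with values from -0.14 to 0.06 and again 0 with an unadjusted p under 0.05.

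The Hsp60, Hsp10 and CCT chaperonins had 3 higher and 3 lower of 9 intervals in males. In the authors' deposited table CCT1, CCT4 and CCT8, on the autosomes, rose by 0.24, 0.26 and 0.23, and Hsp60A, CCT2 and CCT6, on the X, had -0.36, -0.33 and -0.38. In females 0 of 10 were called, with 0 at an unadjusted p under 0.05, between -0.08 and 0.08. The sex difference passed for CCT6 alone of this list (-0.38 ± 0.13, adjusted p = 0.047).

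Only 2 of the other small heat shock genes had an interval in males. In the authors' deposited table CG14207, on the X, had -0.76 ± 0.16 (adjusted p = 8.8e-05), and CG7409 on 3L had -0.74 ± 0.53 (adjusted p = 0.39). CG14207 differed between the sexes by -0.88 ± 0.19 (adjusted p = 4.7e-04), with 0.12 ± 0.10 in females. None of 3 was called in females, where 1 had an unadjusted p under 0.05.

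**Figure D4:**
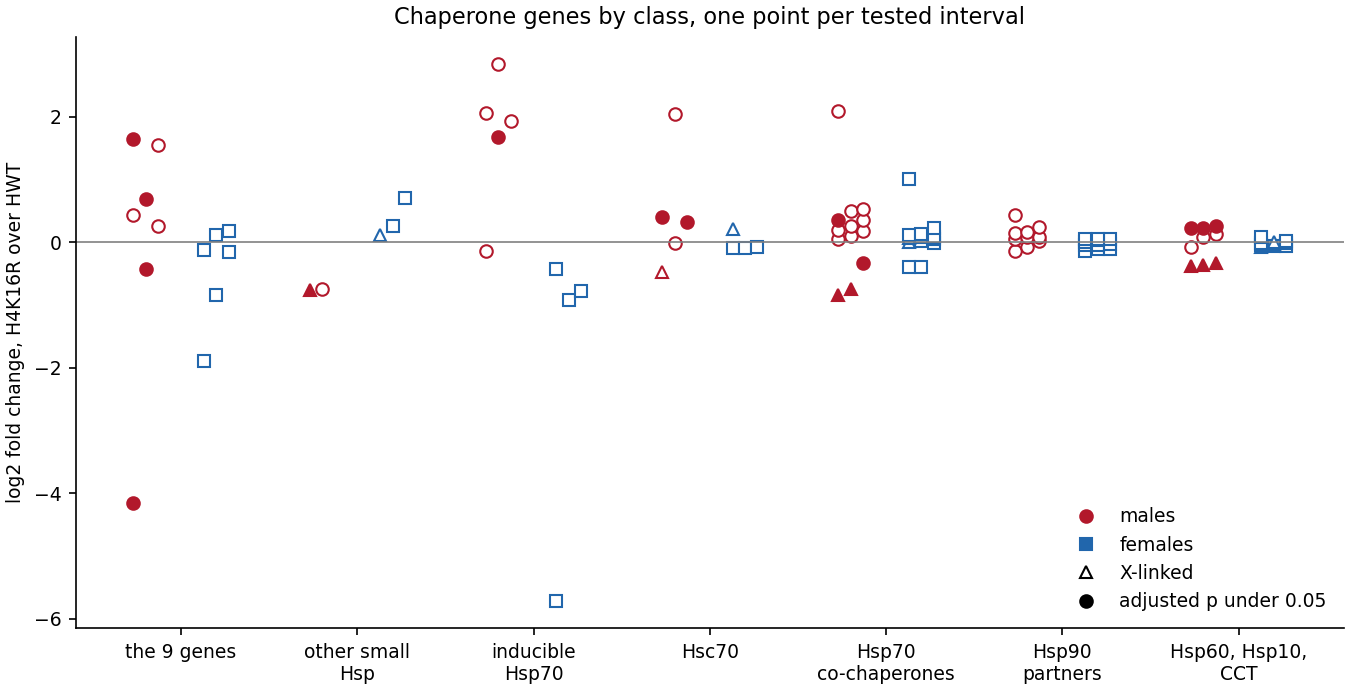
Log2 fold change of H4K16R over HWT (y axis) for every interval of each chaperone class (x axis), males in red and females in blue, triangles for X-linked genes and filled symbols for an adjusted p under 0.05. The 6 filled triangles lie below 0 in males, from -0.84 to -0.33, and no female symbol is filled.

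Markers of other larval tissues moved in the same comparison. In whole discs, fewer cells of a type and less RNA per cell cannot be told apart. Of 10 fat body markers with an interval in males, 6 were lower and 1 higher in H4K16R, where 10.3% of all male intervals were called lower and 5.35% higher, and in the authors' deposited table their median was -1.96. The lower ones were the storage protein genes Lsp1alpha (-2.88, X-linked), Lsp1gamma, Lsp1beta and Lsp2, the receptor gene Fbp1 and the lipophorin gene apolpp. The higher one was Apoltp (1.41). In females 1 of 11 was lower, FASN1 at -1.13, with a median of -0.92, where 0.974% of all female intervals were called in either direction. FASN1 was not called in males (0.33 ± 0.14, adjusted p = 0.090). Of 9 fat body pairs, the sex difference passed for 2, both higher in males, where 7.89% of all pairs passed. These were FASN1 (1.47 ± 0.31, adjusted p = 3.8e-04) and Apoltp (1.56 ± 0.51, adjusted p = 0.034). The glue genes of the salivary gland stood at a median of -3.04 over 6 intervals in males with 0 called (1 at an unadjusted p under 0.05), and -1.05 in females with 0 called (again 1) in the authors' deposited tables. The tables hold no levels, so how much RNA these tissues gave is not known, and their part in the heat shock values was not tested.

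Other marker lists had medians nearer 0, and their male counts stand beside the same 10.3% and 5.35%. Their counts at an unadjusted p under 0.05 stand beside 3093 of 11505 intervals in males and 1252 of 10775 in females. Hemocyte markers had 0 of 10 called in males (1 at an unadjusted p under 0.05, median -0.39) and 0 of 8 in females (0 at an unadjusted p under 0.05, median -0.06) in the authors' deposited tables. Adult muscle precursor markers had 1 higher (kirre, X-linked) and 2 lower (Mlc2 and Ama) of 12 in males (median -0.13). In females 0 of 12 were called (4 at an unadjusted p under 0.05, median 0.08). Tracheal markers had 0 of 5 called in males (1 at an unadjusted p under 0.05, median -0.02) and 0 of 5 in females (3, median 0.29). Markers of the wing disc epithelium were listed in both sexes, 10 of 11 each, in the authors' deposited tables. In males 4 were lower, from -0.33 to -0.22. These were ap and Antp on the autosomes and sd and bi on the X, where 44.6% of all intervals were called lower. In females 0 were called (0 at an unadjusted p under 0.05).

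Replication timing at the heat shock loci was read from the authors' deposited S/G1 values, where a higher value marks earlier replication. Each value is the mean of the 10 windows of 100 kb that hold the gene, on the log2 scale, with 1 value per group and so no error or test. None of the members differed from HWT by as much as 0.1 in any comparison, and few windows on the autosome arms did. The share of those windows was 0.326% in H4K16R males, 1.08% in H4K16R females and 0.651% in H3K9R females. The members are therefore not set apart by this. The 6 genes of the 67B cluster share nearly all of their windows and give 1 timing value in effect.

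At Hsp26 in the cluster, timing was 0.081 in H4K16R males and 0.067 in HWT males, a difference of 0.014 that exceeded that of 68.5% of windows on the autosome arms. In females it was 0.086 in H4K16R and 0.042 in HWT, a difference of 0.043 that exceeded 85.6% of windows. With the HWT profile of the H3K9R table (0.082) in its place, the female difference was 0.0033. These HWT female profiles lie at different levels, with medians over arm windows of 0.028 and, for the H3K9R comparison, 0.066. A difference taken across them includes this offset, here and for the genes below, and is no separate measure of the locus. Arm windows spread more widely in H4K16R females (SD over windows 0.085) than in the HWT females of the same table (0.057). In H3K9R females the locus had 0.075, against 0.082 in HWT.

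l(2)efl had the largest timing difference of the members in males. It stood at 0.027 in H4K16R males and 0.081 in HWT males, a difference of -0.054, and 3.36% of arm windows had a lower one. In females the values were 0.048 in H4K16R and 0.047 in HWT. With the HWT profile of the H3K9R table (0.096) the female difference was -0.048, which includes the offset between the profiles. H3K9R females had 0.049 and HWT females 0.096, a difference of -0.046, with 12.7% of arm windows lower.

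Among the HWT males, Hsp83 had the highest timing value of the members. It had 0.106 in H4K16R males and 0.125 in HWT males, and the HWT value exceeded that of 98.7% of arm windows. In females it had 0.091 in H4K16R and 0.078 in HWT, a difference of 0.013. With the HWT profile of the H3K9R table (0.143) the female difference was -0.052, which includes the offset between the profiles. Hsp68 had 0.066 in both male groups. In females Hsp68 had 0.054 in H4K16R and 0.038 in HWT, a difference of 0.016. With the other HWT profile (0.085) the difference was -0.030, again with that offset. In yw females, whose file gives 10 kb bins, the values were 0.125 at Hsp26, 0.099 at Hsp83, 0.016 at l(2)efl and 0.011 at Hsp68. These yw values were scaled apart from the other tables and are given without a comparison.

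**Figure D5:**
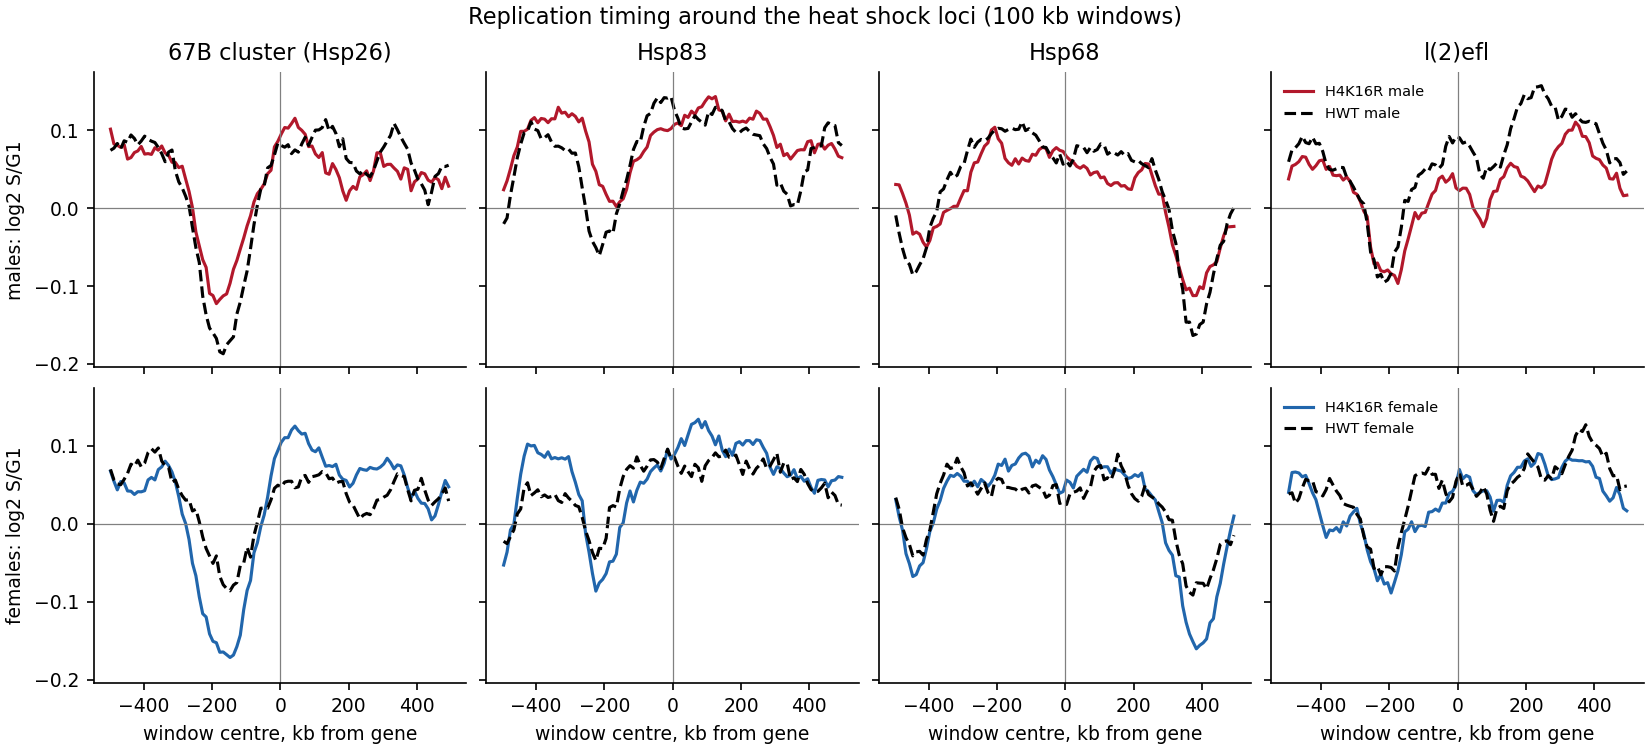
Timing as log2 S/G1 (y axis) in 100 kb windows up to 500 kb from each gene (x axis, kb), males above females, solid for H4K16R and dashed for HWT. The dashed line lies above the solid one at l(2)efl in males (0.081 against 0.027). At the 67B cluster the female solid line lies above the dashed one (0.086 against 0.042 for Hsp26). These values are means of the 10 windows that hold the gene, and single windows in the plot differ from them.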

How the data were processed

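RNA-seq was compared between H4K16R and HWT within each sex (3 libraries per group, grouped by sample titles). Per the submitters' processing notes, the authors used the build dm6 and, in no stated order, SAMtools 1.6, Bowtie2 2.3.2, Cufflinks 2.2.1, TopHat, bedtools, edgeR and limma. The deposited RNA tables hold, per the file headers, 1 log2 fold change and 1 adjusted p-value for each of 11505 intervals in males and 10775 in females. The numerator, the adjustment and the filter on low counts are not given in the sources used here. The authors deposited timing, with 2 S and 1 G1 libraries combined into 1 value per window, as an S/G1 ratio in the female H4K16R table, turned into log2 here, and as values centred near 0 in the others, read as log2.

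Genes came from RefSeq Release 6, which is dm6, matched by a reciprocal overlap above 0.9. Unadjusted p-values were recovered by multiplying each adjusted p by its rank and dividing by the count of intervals (an upper bound where adjusted p are tied), standard errors from the fold change and that p under a normal distribution, and 95% intervals from these. The sex difference was a two-sided z test over all shared pairs with Benjamini-Hochberg adjustment. Steps were tested on simulated data. Timing percentiles are over arm windows on 2L below 22 Mb, 3L below 23 Mb, 2R above 6 Mb and 3R above 4 Mb. Named were all 9 genes, every gene within 25 kb of the 67B members, and called members of the lists (up to 6 each). The genes and lists were chosen with earlier results of these data known. Alternatives were other thresholds, Holm adjustment, a minimum fold change, centring, looser overlap, errors from a t distribution, and other timing windows. Computation used scipy 1.17.1, pandas 2.3.3 and numpy 2.4.6 under Python 3.11.15, with figures by matplotlib 3.10.9.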

Additional observations from a re-analysis of the deposited data

Results flagged for a closer look

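The H4K16R effect differed between the sexes, by the z test of the difference, for 2 heat shock intervals. For Hsp22/CG4456 the male minus female difference was 2.49 on the log2 scale, with 1.66 in males and -0.83 in females in the authors' deposited tables. For Hsp23 it was -0.60, with -0.42 in males and 0.18 in females in the authors' deposited tables.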

How the results depend on the processing

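The counts of called members are small and move with the threshold. In males 1 interval was higher and 1 lower at an adjusted p under 0.01 (Hsp22/CG4456 and Hsp23), 0 and 0 with Holm adjustment, and 1 was lower with a log2 fold change of at least 0.5 required. The sex difference was higher in males for 4 intervals with errors from a t distribution with 4 degrees of freedom, which are smaller by construction, for 2 after centring, for 2 at an adjusted p under 0.10 and for 0 with Holm adjustment, which also left 0 lower. The 67B minus other difference of medians was 0.30 in males and 1.03 in females. It was 1.32 and -0.30 with the small heat shock genes of all lists, which brings in genes that are not members. The cause was not tested. Centring and looser overlap changed no member's direction or call within a sex, and 0 intervals were called in females under each alternative run. No paired analysis was possible because the files hold no value per library, and for the same reason no library could be left out. Without counts, how far l(2)efl, Hsp68 and the inducible Hsp70 copies lie above the detection floor is unknown.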
